A study of Mus musculus with 7 samples.

Results

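Collagen genes in the pancreas of mouse embryos were followed here as a family, in polyadenylated RNA sequenced from 7 embryos at the embryonic stage E15.5. A feature of the deposited count table was taken as a member when its Ensembl identifier maps to a mouse symbol of the form Col, number, a, number. This gave 44 genes of 27138 features, which are all 44 such symbols of the reference annotation. The 4 WT embryos carried floxed alleles (mLINC00673fl/fl) of 2610035D17Rik, the mouse ortholog of the long non-coding RNA LINC00673, and no Cre. The 3 cKO embryos carried the same floxed alleles together with Pdx1Cre. Each library came from its own animal. By the level of Xist, WT replicate 2 was taken as female and the other 6 embryos as male, so the sexes are not balanced between the groups. The floxed allele was thus common to all 7 embryos, and the loss of 2610035D17Rik cannot be told apart from an effect of Cre itself. The Pdx1 promoter is active in the epithelium of the developing pancreas, whereas the RNA came from the whole organ.

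Collagens are secreted proteins in which 3 chains with a repeated Gly-X-Y sequence wind around each other into a stiff helix. Fibrillar collagens line up into the cables that carry load in connective tissue, fibril-associated collagens sit on the surface of those cables, collagen IV forms the sheet of the basement membrane under epithelia and around vessels, and collagen VI forms beaded filaments. In the pancreas most fibrillar collagen is made by the mesenchyme that surrounds the branching epithelium, while endothelial, mesenchymal and epithelial cells all contribute to basement membranes. A whole-organ library sums these cells, and fewer cells of a type and less RNA per cell cannot be told apart in it.

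The libraries held 14883918 to 17767373 counts. The targeted gene 2610035D17Rik had 9.08, 8.77, 7.93 and 8.83 CPM (counts scaled to a common library total) in WT replicates 1 to 4 and 2.01, 3.38 and 2.27 CPM in cKO replicates 1 to 3, with no overlap between the groups. Its log2 fold change, the fitted log2 ratio of cKO to WT, was −1.76 (SE 0.215), with an adjusted p of 0.0902 in edgeR's quasi-likelihood test and of 1.25e-09 in DESeq2 (Benjamini-Hochberg over all features). Among markers of other cell types, the summed level of 12 liver genes was highest in cKO replicate 1 (1975 CPM) and WT replicate 4 (1347 CPM), against 357 to 540 CPM in the other 5 libraries. Most of the lower sums was Ambp, which had 288 to 424 CPM over all libraries. Alb had 689 CPM in cKO replicate 1 and 354 CPM in WT replicate 4, against 8.59 to 31.0 CPM in the other 5. The 12 markers of pancreatic epithelium were all present, and their sum was 7810 to 13000 CPM in WT against 7720 to 9720 CPM in cKO. Most of that sum was Cpa1, with 4580 to 8830 CPM in WT and 4050 to 5670 CPM in cKO, so it does not measure the epithelium as a whole. Epcam had 359 to 505 CPM in WT and 347 to 429 CPM in cKO. The sum of 14 mesenchyme markers was 1440 to 1860 CPM in WT against 1610 to 1960 CPM in cKO.

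Collagen transcripts were abundant in every embryo. They took 1.48%, 1.46%, 1.78% and 1.42% of all counts in WT replicates 1 to 4 and 1.41%, 1.46% and 1.59% in cKO replicates 1 to 3. The 3 genes Col1a1, Col1a2 and Col3a1, which encode the chains of collagens I and III, made up 61.3% ± 0.48 of the collagen counts in WT (SD, n = 4) against 62.0% ± 2.48 in cKO (SD, n = 3). Of the 44 genes, 30 had a mean of 10 CPM or more over the 7 libraries and 42 passed the filter on low counts. The 2 that failed it were Col10a1, the collagen of hypertrophic cartilage, with 5 counts in all, and Col4a3, a chain of the collagen IV network of the mature kidney glomerulus, with 40 counts in all.

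Genes can be ranked only once their length is taken into account, so levels between genes are given as CPM per kilobase of annotated exons. On that scale Col1a1 led in WT with 535.6 ± 59.0, followed by Col3a1 with 353.7 ± 40.5, Col1a2 with 191.4 ± 19.3, Col6a1 with 139.0 ± 13.2 and Col4a1 with 116.5 ± 8.92 CPM per kilobase (SD, n = 4). On the same scale, behind Col4a1 came Col5a1 (89.1 ± 11.8), Col6a2 (83.0 ± 9.46), Col18a1 (65.3 ± 2.16), Col4a2 (64.9 ± 5.30) and Col5a2 (43.0 ± 3.86). The neighbours Col5a1 and Col6a2 differed by less than the SD of each, and so did Col18a1 and Col4a2. Part of this order depends on which length is used. With the longest annotated transcript in place of all exons, Col3a1 stood first in WT at 624.0 ± 71.5 CPM per kilobase (SD, n = 4). Col1a1 followed at 592.8 ± 65.3 and Col1a2 at 444.8 ± 44.7. Col6a2 then stood at 140.8 ± 16.0, which puts it before Col4a1 at 131.4 ± 10.1 CPM per kilobase. On this scale Col3a1 and Col1a1 differed by less than the SD of each, and so did Col6a2 and Col4a1.

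**Figure D1:**
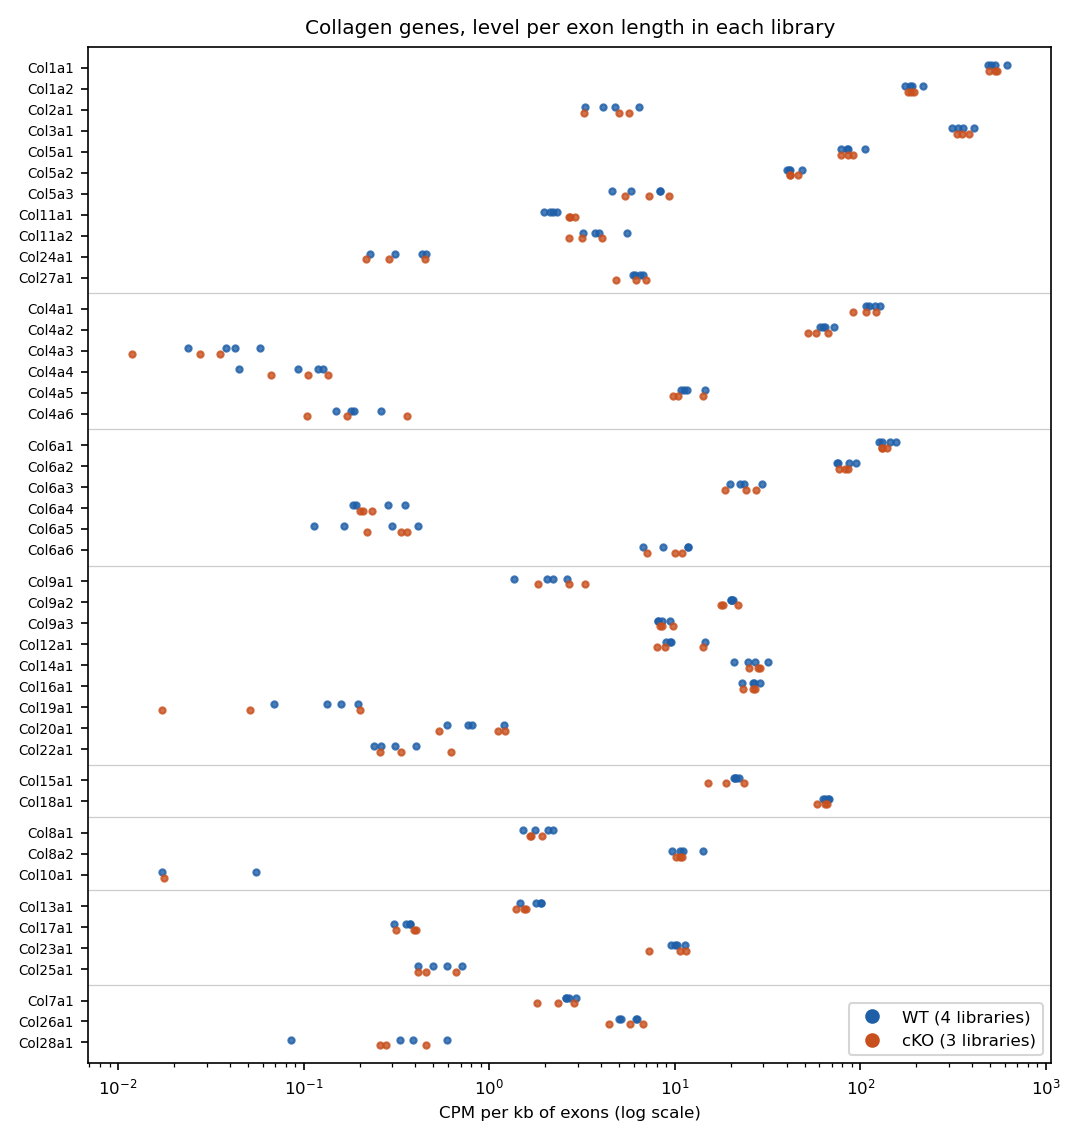
Level of each collagen gene in each library, in CPM per kilobase of annotated exons on a log axis, with genes grouped by class; each point is 1 library, and libraries with 0 counts, which occur only for Col10a1, have no point. The family spans more than 4 powers of 10, and WT and cKO points lie over each other in nearly every row.

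By class, the fibrillar genes held 64.9% ± 0.597 of the summed collagen level per kilobase in WT (SD, n = 4) against 65.7% ± 2.40 in cKO (SD, n = 3). Beaded filament genes held 13.4% ± 0.448 in WT and 13.4% ± 0.652 in cKO, and the basement membrane network 10.2% ± 0.522 and 9.55% ± 1.20. Fibril-associated genes followed with 5.00% and 5.14%, and the multiplexins with 4.58% and 4.43%. Short-chain, transmembrane and anchoring or other collagens each stayed below 1% in both groups. With the longest transcript as the length, the fibrillar share in WT was 69.5%. For the 3 leading classes the difference between the groups was smaller than the SD of the cKO libraries. For the fibrillar and basement membrane classes it was larger than the SD of the WT libraries, but the libraries overlapped. Fibrillar shares were 64.4% to 65.8% in WT and 63.1% to 67.8% in cKO. Basement membrane shares were 9.65% to 10.8% in WT and 8.50% to 10.9% in cKO. The fibril-associated share differed by more than its SDs (0.0909 in WT and 0.0994 in cKO), but the libraries overlapped, at 4.90% to 5.08% in WT and 5.04% to 5.23% in cKO. The lowest basement membrane share, 8.50%, was in cKO replicate 1.

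No collagen gene passed the threshold in cKO against WT. At an edgeR adjusted p under 0.05, 0 of 42 tested genes were called, where 1 of all 16910 tested features was (0.00591%), and DESeq2 called 0 of 42 against 13 of all features (0.0769%). At an unadjusted p under 0.05 edgeR listed 1 of 42 collagen genes (2.38%) against 1.38% of all features, and WT and cKO libraries did not overlap for 1 of 42 (2.38%) against 2.72% of all features. The gene is Col11a1 in both cases, and it was higher in cKO. Of all features, 0.668% were higher in cKO at that p, and 1.3% were higher in cKO without overlap. On the lower side there were 0 collagen genes, beside 0.716% and 1.43% of all features. Fitted fold changes were below 0 for 29 of 42 collagen genes (69.0%) and above 0 for 13 (31.0%), where all features divided into 54.0% and 46.0%. Their median log2 fold change was −0.05, beside −0.01 over all features. That median sits near 0 and changes sign with single libraries: leaving out WT replicate 3 gave 0.03, leaving out cKO replicate 1 gave 0.02 and leaving out cKO replicate 3 gave −0.10.

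The data set bounds on what these collagens could have done. Of the 30 genes at 10 CPM or more, 24 had a 95% interval of the fold change that stayed within 1.5-fold in either direction, and all 30 within 2-fold. The 6 whose intervals reached past 1.5-fold were Col2a1, Col5a3, Col11a2, Col6a6, Col9a1 and Col12a1.

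**Figure D2:**
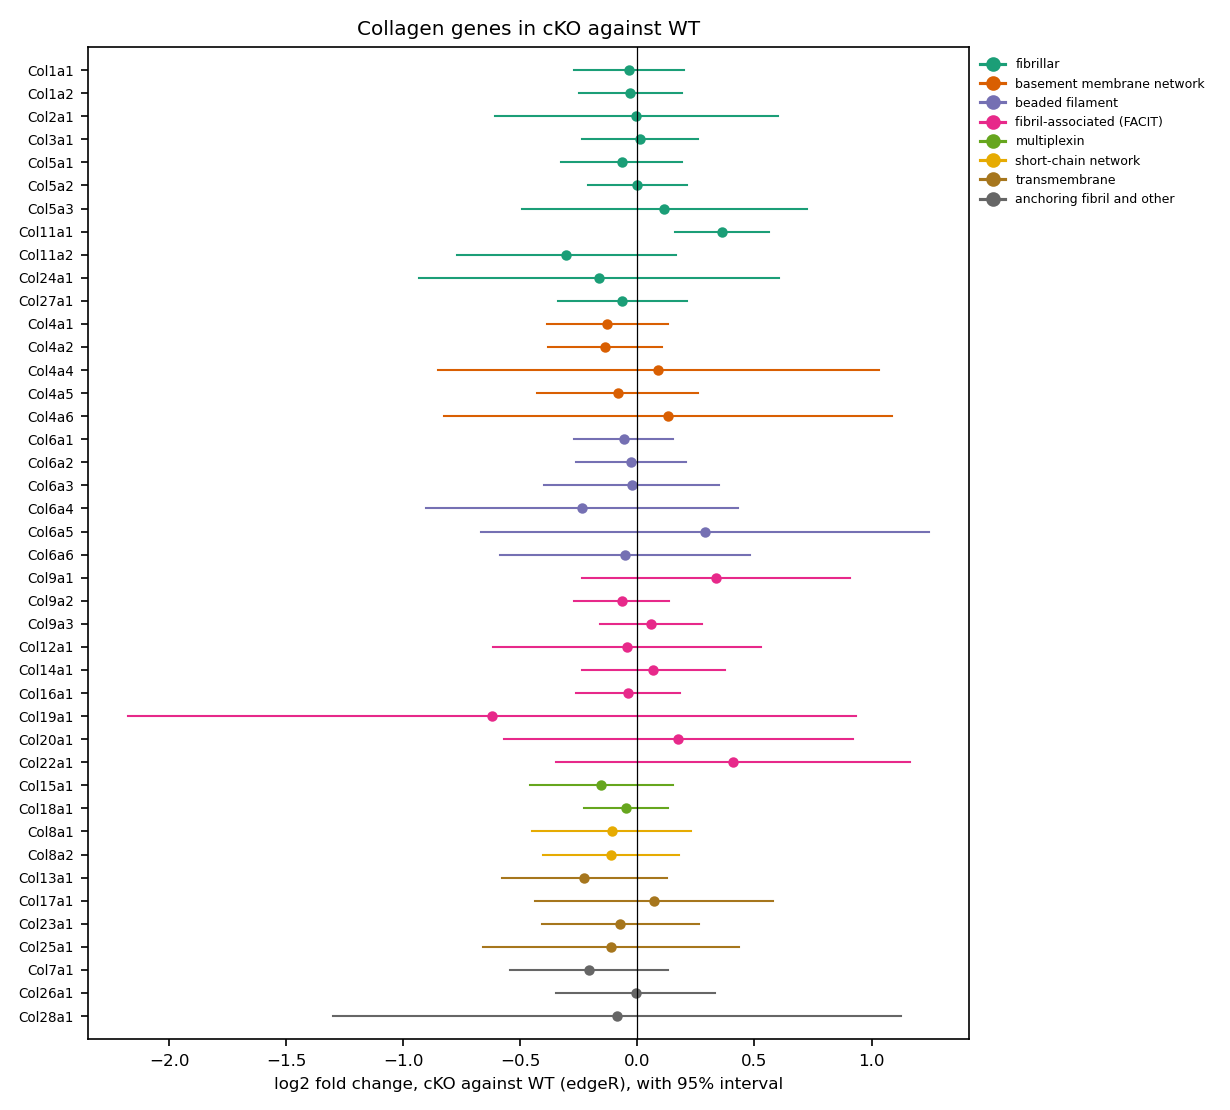
Fitted log2 fold change of each of the 42 tested collagen genes in cKO against WT (points) with its 95% interval (lines), coloured by class. Only the interval of Col11a1 lies wholly on 1 side of 0; the widest belong to genes with few counts such as Col19a1 and Col28a1.

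Among the fibrillar genes, 4 of 11 had a fitted fold change above 0 and the median was −0.03. Col1a1 had 3314, 3191, 4067 and 3488 CPM in WT replicates 1 to 4 and 3497, 3223 and 3575 CPM in cKO replicates 1 to 3. Every cKO value lies inside the WT range, and the log2 fold change was −0.03 (95% interval −0.27 to 0.20). Col1a2, its partner in the collagen I trimer, had 2290, 2149, 2711 and 2366 CPM in WT against 2415, 2250 and 2327 CPM in cKO, with a log2 ratio of −0.03 (−0.25 to 0.19). Col3a1, the collagen of soft, stretchable tissue, had 3077, 3521, 4003 and 3286 CPM in WT against 3448, 3275 and 3784 CPM in cKO. All 3 cKO values again fall inside the WT range, at a log2 ratio of 0.01 (−0.24 to 0.26).

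Collagen V joins collagen I fibrils and limits their diameter. Col5a1 had 756 ± 99.9 CPM in WT (SD, n = 4) against 722 ± 55.8 CPM in cKO (SD, n = 3), and Col5a2 had 412 ± 37.1 and 412 ± 24.3 CPM. Their log2 fold changes were −0.07 (95% interval −0.33 to 0.19) and 0.00 (−0.21 to 0.21). Col5a3, a chain found in fewer tissues, was more uneven, from 31.1 to 57.0 CPM in WT against from 36.9 to 63.5 CPM in cKO. Col27a1, a fibrillar chain best known from cartilage, had 81.9 ± 4.64 CPM in WT against 78.3 ± 14.3 CPM in cKO, and Col24a1, another minor fibrillar chain, averaged under 10 CPM.

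Col11a1 was the only collagen gene whose groups stood apart. Collagen XI is a minor fibrillar collagen, known from the core of cartilage fibrils and also made outside cartilage. Col11a1 (ENSMUSG00000027966, chromosome 3, plus strand) had 29.6, 25.2, 28.0 and 27.1 CPM in WT replicates 1 to 4 and 34.2, 34.7 and 37.0 CPM in cKO replicates 1 to 3. The lowest cKO library lay above the highest WT library, on 383 to 670 counts per library. The means were 27.5 ± 1.84 CPM in WT (SD, n = 4) against 35.3 ± 1.52 CPM in cKO (SD, n = 3), a log2 ratio of 0.36 (SE 0.0889, 95% interval 0.16 to 0.56) or 1.28-fold. The unadjusted p was 0.00287 in edgeR, and the adjusted p was 1.0 in edgeR and 0.636 in DESeq2, so the difference did not pass the threshold after adjustment over all features. The exact two-sided permutation test gave p = 0.0286, the smallest that 35 divisions of 7 libraries allow. Groups that do not overlap bring this p to or near its smallest value, so it is no further evidence beside the separation. Groups did not overlap for 2.72% of all features. Over all alternative settings the log2 fold change stayed between 0.32 and 0.40 and the unadjusted p between 0.000829 and 0.0143, and the adjusted p stayed at 0.636 or above.

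The other cartilage collagens did not separate the groups. Col2a1, the main cartilage collagen, had 44.1, 59.2, 37.9 and 30.5 CPM in WT against 29.9, 46.3 and 52.2 CPM in cKO, at a log2 ratio of −0.01 (95% interval −0.61 to 0.60). Col11a2, which forms trimers with Col11a1 and Col2a1 products in cartilage, had 26.8, 37.8, 21.9 and 25.5 CPM in WT against 18.4, 27.7 and 21.8 CPM in cKO, at −0.30 (−0.77 to 0.16). The fitted sign for Col11a2 was thus opposite to that of Col11a1, and its groups overlapped. The ratio of Col11a1 to Col11a2 was 1.11, 0.667, 1.28 and 1.06 in WT and 1.85, 1.25 and 1.70 in cKO, so that cKO replicate 2 fell below WT replicate 3. Of the 9 cartilage markers in the table, Matn1, Matn3, Comp, Snorc and Epyc averaged under 1 CPM and Acan, an aggregating proteoglycan, led with 35.4 CPM. The sum of the 9 was 38.4 to 62.7 CPM in WT against 37.2 to 59.0 CPM in cKO, whose ranges overlap.

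Fibril-associated collagens carry interrupted helices and decorate fibrils. Of the 9 genes, 5 had a fitted fold change above 0, with a median of 0.06. Col9a1, a chain of the cartilage collagen IX, had 11.2, 13.2, 10.4 and 6.86 CPM in WT against 9.28, 13.6 and 16.6 CPM in cKO, at a log2 ratio of 0.34 (95% interval −0.24 to 0.91). The groups overlapped, since cKO replicate 1 lay below 3 of the WT libraries. Its partners were steadier, with 62.5 ± 0.754 and 59.7 ± 6.97 CPM for Col9a2 and 32.8 ± 2.31 and 34.2 ± 2.97 CPM for Col9a3 in WT and cKO. The annotated exons of Col9a3 share 234 bases with Tcfl5 on the other strand, and this library preparation did not keep the strand.

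Col14a1, found on fibrils of dermis and tendon, had 183 ± 32.0 CPM in WT against 192 ± 13.9 CPM in cKO, and Col16a1 had 178 ± 16.3 and 173 ± 14.0 CPM. Col12a1, found along fibrils of tendon and fascia, had 137, 144, 222 and 145 CPM in WT against 122, 135 and 215 CPM in cKO. WT replicate 3 and cKO replicate 3 both stood high, 1 in each group, and the log2 fold change was −0.05 (95% interval −0.62 to 0.53). Col19a1, Col20a1 and Col22a1 averaged under 10 CPM.

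Collagen VI anchors cells to the matrix around them. Col6a1 had 572.0, 552.8, 680.4 and 629.5 CPM in WT against 569.9, 609.7 and 573.3 CPM in cKO, and Col6a2 had 691 ± 78.8 CPM in WT against 678 ± 37.8 CPM in cKO. Their log2 fold changes were −0.06 (95% interval −0.27 to 0.15) and −0.03 (−0.26 to 0.21). Col6a3, the longest chain of the classical trimer, had 285 ± 49.8 and 281 ± 53.1 CPM. Of the chains that can stand in for it, Col6a6 had 89.2 ± 22.5 CPM in WT against 85.9 ± 18.8 CPM in cKO, while Col6a4 and Col6a5 averaged under 10 CPM. Of the 6 genes of the class, 1 had a fitted fold change above 0, and the median was −0.04.

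The basement membrane network was represented by the collagen IV chains α1 and α2, with some α5. Col4a1 had 828.5, 899.9, 947.4 and 801.4 CPM in WT against 677.9, 908.5 and 799.9 CPM in cKO, and Col4a2 had 415, 425, 480 and 399 CPM in WT against 346, 444 and 380 CPM in cKO. In both genes cKO replicate 1 was the lowest of the 7 libraries and cKO replicate 3 also lay just below every WT library, while cKO replicate 2 lay inside the WT range. cKO replicate 1 is also the library with the highest liver sum, and the summed level of 10 endothelial markers was 713 to 822 CPM in WT and 717 to 798 CPM in cKO; the part of either in the collagen IV values was not tested. The log2 fold changes were −0.13 (95% interval −0.39 to 0.13) and −0.14 (−0.38 to 0.10), and without cKO replicate 1 they were −0.02 and −0.06. Col4a5 had 81.3 ± 11.5 CPM in WT (SD, n = 4) against 76.7 ± 15.8 CPM in cKO (SD, n = 3). Col4a4 and Col4a6 averaged under 2 CPM in both groups.

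Col4a1 and Col4a2 are neighbours on chromosome 8 that point away from each other. Their 300-base promoter windows, from 250 bases before to 50 bases after the start of each gene in RefSeq on GRCm38.p6, are shown because they are partly the same DNA. Capitals mark the 78 bases that both windows hold, read on opposite strands. Col4a1 is at chr8:11312777-11313076 on the minus strand and Col4a2 at chr8:11312555-11312854 on the plus strand.
Col4a1: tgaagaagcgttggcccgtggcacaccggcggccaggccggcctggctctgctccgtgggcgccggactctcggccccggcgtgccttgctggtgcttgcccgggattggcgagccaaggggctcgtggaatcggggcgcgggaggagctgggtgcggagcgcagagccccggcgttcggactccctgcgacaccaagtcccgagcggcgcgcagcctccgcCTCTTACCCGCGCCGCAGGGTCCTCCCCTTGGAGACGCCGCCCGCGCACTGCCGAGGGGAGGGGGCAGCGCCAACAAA
Col4a2: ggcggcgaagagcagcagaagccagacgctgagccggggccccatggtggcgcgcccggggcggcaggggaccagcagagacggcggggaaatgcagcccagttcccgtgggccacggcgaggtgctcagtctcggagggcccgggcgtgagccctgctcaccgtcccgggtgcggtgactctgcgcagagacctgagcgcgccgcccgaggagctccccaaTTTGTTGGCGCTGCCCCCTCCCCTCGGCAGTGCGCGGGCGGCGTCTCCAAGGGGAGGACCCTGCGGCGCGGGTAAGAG

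The levels of these 2 genes also moved together. The ratio of Col4a1 to Col4a2 in CPM was 2.02 ± 0.0648 in WT (SD, n = 4) against 2.04 ± 0.0738 in cKO (SD, n = 3). Its coefficient of variation over the 7 libraries was 3.10%, against 10.8% and 10.5% for the genes themselves. Their annotated exons share 22 bases, which is 0.295% of those of Col4a1. Collagen I chains behaved alike although their genes lie on different chromosomes: Col1a1 over Col1a2 was 1.48 ± 0.0222 in WT and 1.47 ± 0.0561 in cKO, with a coefficient of variation of 2.44% against 8.54% and 7.53%. Col6a2 over Col6a1 varied by 2.75%.

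Other pairs were looser. Col4a5 over Col4a1 varied by 14.5%, Col6a3 over Col6a1 by 13.9% and Col4a1 over Col1a1, across classes, by 13.2%. Col11a1 over Col2a1 varied by 28.7% and Col11a1 over Col11a2 by 31.3%, more than any of the 3 genes alone. The tight pairs have transcripts of similar length, and so do Col4a5 and Col4a1. The part of length in these ratios was not tested.

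**Figure D3:**
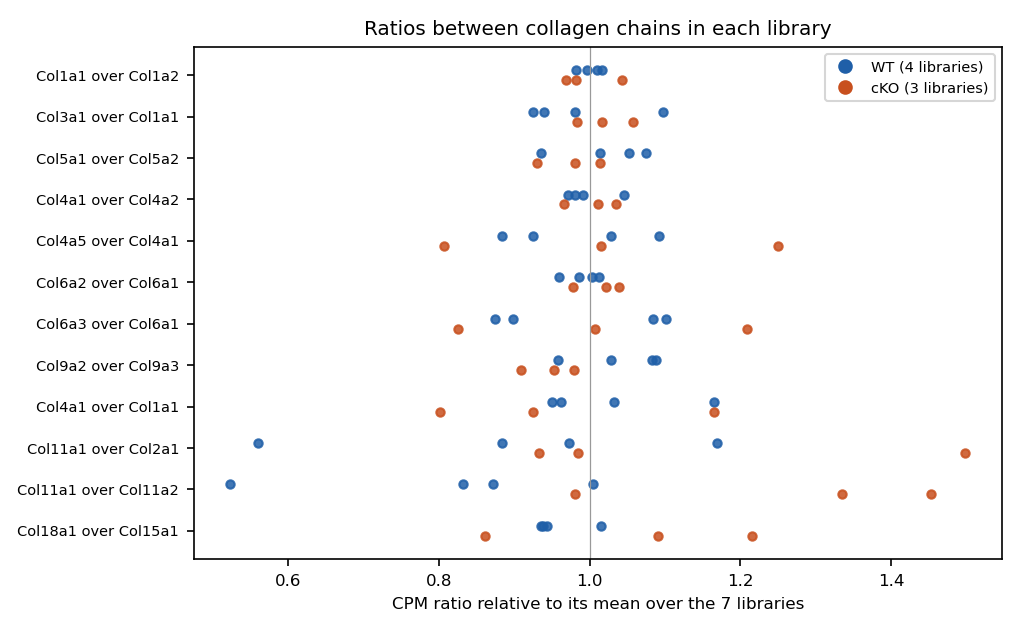
Ratio of CPM between pairs of collagen chains in each library, divided by its mean over the 7 libraries (linear axis); each point is 1 library. Col1a1 over Col1a2, Col4a1 over Col4a2 and Col6a2 over Col6a1 stay close to 1, while the ratios with Col11a1 spread most.

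The multiplexins Col15a1 and Col18a1, basement membrane collagens that carry glycosaminoglycan chains and the source of the endostatin fragments, were steady in WT. Col15a1 had 134, 141, 132 and 136 CPM in WT against 95.6, 149.7 and 120.4 CPM in cKO, at a log2 ratio of −0.15 (95% interval −0.46 to 0.15). Col18a1 had 458 ± 15.1 CPM in WT against 443 ± 28.7 CPM in cKO, at −0.05 (−0.23 to 0.13). Both were lowest in cKO replicate 1.

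Among the short-chain network collagens, made for instance by vessel walls and the cornea, Col8a1 had 14.8 ± 2.40 CPM in WT against 13.7 ± 1.09 CPM in cKO, and Col8a2 had 51.3 ± 8.93 and 47.5 ± 1.68 CPM. Of the transmembrane collagens only Col23a1 reached 10 CPM, with 58.9 ± 4.36 CPM in WT against 56.0 ± 12.7 CPM in cKO. Col13a1 (8.12 and 6.93 CPM), Col25a1 (7.18 and 6.64 CPM) and Col17a1 (2.13 and 2.23 CPM) were lower. Col7a1, which builds the anchoring fibrils under stratified epithelia, had 27.9 ± 1.69 CPM in WT against 24.1 ± 5.52 CPM in cKO, at a log2 ratio of −0.21 (95% interval −0.55 to 0.13). Col26a1 had 46.2 ± 5.49 and 45.9 ± 9.53 CPM, and Col28a1 averaged under 2 CPM.

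Libraries differed from each other more than the groups did. WT replicate 3 was the highest of the 7 for 20 of 42 tested collagen genes, and cKO replicate 1 was the lowest for 18 and WT replicate 2 for 14. The median deviation of the 42 genes from their 7-library mean was 0.21 on the log2 scale in WT replicate 3 and −0.18 in cKO replicate 1, and between −0.06 and 0.06 in the other 5.

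Transcript length moved with part of this pattern. Many collagens have long transcripts. Of the collagen genes at 10 CPM or more, 5 have a longest transcript of 8 kb or more (Col5a1, Col6a3, Col6a6, Col7a1 and Col12a1). Their median log2 deviations were −0.19, 0.02, 0.33 and −0.07 in WT replicates 1 to 4 and −0.36, 0.06 and 0.23 in cKO replicates 1 to 3. The 709 other protein-coding genes of that length and level had −0.07, 0.18, 0.19 and −0.12 in WT and −0.38, 0.01 and 0.19 in cKO. For the 1796 other genes under 2 kb the sign turned, with 0.19 in cKO replicate 1 and −0.08 in WT replicate 3. The lowest library for the long collagens, cKO replicate 1, and the highest, WT replicate 3, are the lowest and the second highest for the other long genes. WT replicate 2 was high for the other long genes (0.18) but not for the long collagens (0.02). At 4 to 6 kb, WT replicate 3 had 0.192 over 12 collagen genes against 0.035 over 2671 other genes. There cKO replicate 1 had −0.084 against −0.10. At 6 to 8 kb the values were 0.185 against 0.092 in WT replicate 3 and −0.247 against −0.254 in cKO replicate 1. How much of the collagen values follows from length was not tested.

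**Figure D4:**
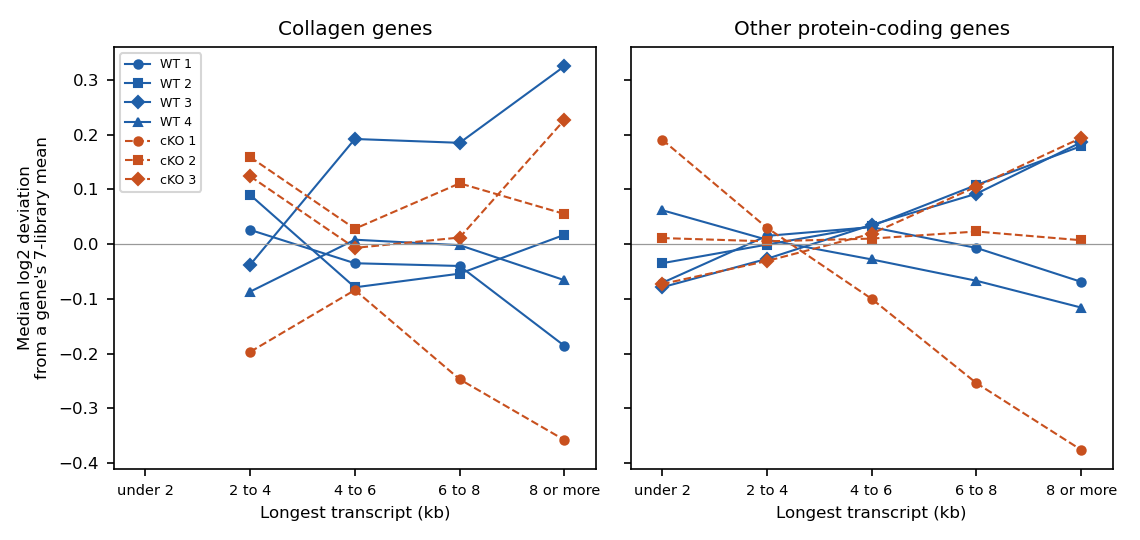
Median log2 deviation of CPM from a gene's 7-library mean (vertical axis) by length of the longest transcript in kb (horizontal axis), for collagen genes (left) and other protein-coding genes (right) at 10 CPM or more; each line is 1 library. cKO replicate 1 is lowest at 8 kb or more in both panels (−0.36 and −0.38); it falls from bin to bin only in the right panel, and the left panel rests on 4 to 12 genes a bin.

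**Figure D5:**
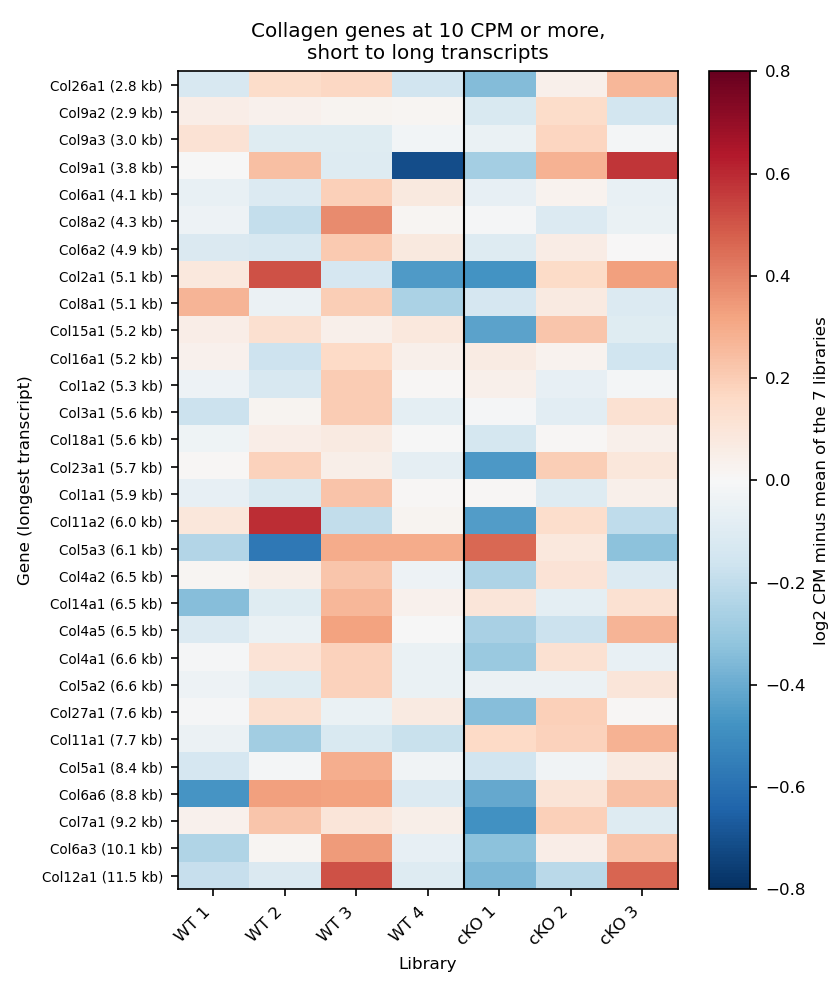
Deviation of log2 CPM from the mean of the 7 libraries for the 30 collagen genes at 10 CPM or more, ordered from short to long transcripts; columns are libraries, with the line between WT and cKO. The column of WT replicate 3 is mostly above the mean and that of cKO replicate 1 mostly below, while Col11a1 is above the mean in all 3 cKO libraries.

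The genes that modify, export and bind collagen chains did not pass the threshold either. Of 85 such genes in the table, 80 were tested, and 0 were called by edgeR or DESeq2 (0.00591% and 0.0769% of all features were). Of the 80, 36 had a fitted fold change above 0, and their median log2 fold change was −0.01, the same as over all features. At an unadjusted p under 0.05 edgeR listed 1 of 80 (1.25%), Dpt, which is near the 1.38% of all features. Dpt encodes dermatopontin, a small matrix protein that binds decorin and collagen. It had 5.78, 5.01, 5.09 and 8.48 CPM in WT against 11.9, 10.2 and 6.08 CPM in cKO, so that the groups overlapped through WT replicate 4 and cKO replicate 3. Its log2 fold change was 0.63 (95% interval 0.01 to 1.24), with an unadjusted p of 0.0461 and an adjusted p of 1.0 in edgeR, and an exact permutation p of 0.143.

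Of the 18 enzymes and chaperones that hydroxylate, glycosylate and fold the chains, 11 were fitted above 0, with a median of 0.01. The smallest unadjusted p values belonged to P3h1, a prolyl 3-hydroxylase (91.6 ± 8.36 CPM in WT against 96.4 ± 3.71 in cKO), and P4ha2, a subunit of prolyl 4-hydroxylase (46.5 ± 4.70 and 48.5 ± 6.23 CPM). Of the 19 tested genes of export, propeptide cleavage and cross-linking, 5 were fitted above 0, with a median of −0.03. The procollagen N-proteinases Adamts3 and Adamts2 had log2 fold changes of −0.48 (95% interval −1.16 to 0.20) and −0.16 (−0.43 to 0.10). Of the 10 tested receptors, 2 were fitted above 0, with a median of −0.04. The integrin chains Itga11 and Itga2 stood at −0.30 (−0.65 to 0.04) and −0.22 (−0.66 to 0.23).

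Of the 20 tested collagen-binding matrix proteins, 12 were fitted above 0, with a median of 0.01. Dcn, the proteoglycan decorin, had 330 ± 53.8 CPM in WT against 365 ± 55.8 CPM in cKO. Of the 13 tested genes of collagen breakdown, 6 were fitted above 0, with a median of −0.01, and the metalloproteinase inhibitor Timp3 and the gelatinase Mmp9 had log2 fold changes of −0.21 (95% interval −0.54 to 0.13) and 0.34 (−0.32 to 1.01). None of the 5 lists had a member past the threshold.

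Many collagen genes share a sequence feature that played no part in choosing them, namely matches to the seed of the miR-29 family in their 3′ UTRs. The miR-29 microRNAs are well known for repressing collagen mRNAs. Their mature sequences in RefSeq are shown with the seed, bases 2 to 8, in capitals, since all 3 have the same one.
mmu-miR-29a-3p: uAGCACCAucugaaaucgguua
mmu-miR-29b-3p: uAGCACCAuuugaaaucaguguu
mmu-miR-29c-3p: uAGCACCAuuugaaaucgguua

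The complement of that seed, TGGTGCT on the mRNA strand, was present in the annotated 3′ UTR of 23 of 42 tested collagen genes (54.8%) and of 1968 of 14440 other tested protein-coding genes (13.6%). At least 2 matches were present in 10 collagen genes (23.8%) and in 2.16% of the others, at a median 3′ UTR length of 882 and 983 bases. The matches were uneven over the classes, with 9 of 11 fibrillar genes, 5 of 5 tested basement membrane genes and 2 of 6 beaded filament genes. They were present in 3 of 9 fibril-associated genes, 1 of 2 multiplexins, 1 of 2 tested short-chain genes and 2 of 3 anchoring or other genes. Of the 4 transmembrane genes 0 had a match, and Col25a1 among them has an annotated 3′ UTR of only 30 bases. Stretches of 4 genes are shown with the match in capitals, as examples from both leading classes.
Col1a1: gaaggaatttcTGGTGCTatagaagc
Col3a1: aaatgtctcaaTGGTGCTataataaa
Col4a1: ccgtcacaacaTGGTGCTactccccc
Col4a5: gctcccaccaaTGGTGCTaatatcct

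Col11a1 holds 2 matches and Col11a2 and Col1a2 hold 0. A match is a description of the sequence, and levels of mature microRNAs were not measured in these poly(A) libraries.

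Promoter motifs set the family apart less. RefSeq windows of the same 300 bases were found for 35 of 44 genes, in 38 windows. The TATA box letters TATAAA, searched on both strands, occurred in 13.2% of collagen windows and in 13.6% of all 32851 windows, and CCAAT in 34.2% and 37.4%. The GC box letters GGGCGG occurred in 60.5% of collagen windows, the 2 windows printed for Col4a1 and Col4a2 among them, and in 35.7% of all windows. The match in the Col4a1 window lies in the bases shared with the Col4a2 window. All windows were not limited to tested protein-coding genes, unlike the comparison for miR-29. The overlap of these motifs with each other was not examined.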

How the data were processed

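Polyadenylated RNA of whole E15.5 pancreas was sequenced in 4 WT and 3 cKO libraries. The values are raw counts of reads per feature, which the authors deposited as whole numbers without normalization. Per the submitters' processing notes, mm39 was the build and HISAT2, StringTie and featureCounts were used, with roles and versions not given in the sources used here. Reads that match several places, and reads of antisense neighbours in this unstranded preparation, could be assigned in ways that alter the counts. Per the labels, each replicate is a separate animal. All 7 columns were used, and 0 columns of per-sample values were left out. The header of WT replicate 4 carries another number than those of the other WT libraries, and what it stands for is not stated.

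Features with a running number in place of a gene identifier took 0.206% of the counts. Names, gene lengths and 3′ UTRs came from GENCODE M21 (GRCm38), another build than that of the files, so no coordinates were joined to them. The tests used edgeR 4.0.16 under R 4.3.3 (filterByExpr, 16910 features kept, TMM, robust glmQLFit, glmQLFTest, Benjamini-Hochberg adjusted p under 0.05), and by DESeq2 1.42.0 and limma 3.58.1 (voom) as alternatives. CPM used TMM-scaled totals. Deviations from the 7-library mean used log2(CPM + 0.1) in the counts by library and length. Promoter windows and microRNAs came from RefSeq tables on GRCm38.p6. The libraries held 14883918 to 17767373 counts, and the median SE of the 42 tested collagen genes was 0.15 on the log2 scale.

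The members, classes, marker and pathway lists were chosen with earlier results of these data known. Named in the text were 2610035D17Rik, collagen genes with a mean of 10 CPM or more, an unadjusted p under 0.05, separated groups or a failed filter, and in each pathway list the 2 tested members with the smallest unadjusted p. Other genes are named for context and were chosen after their values were seen. Of the pathway genes 1, Mmp1a, was not matched to the table.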

Additional observations from a re-analysis of the deposited data

Results flagged for a closer look

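In the WT group of 4, WT replicate 3 stood apart from the other libraries in 3 of 63 values examined, by a gap that is large for the range of the group; chance gives such a gap in about 1 of 20 groups. Col12a1 had 222.3 CPM there against 137 to 145 CPM in the other WT libraries, while cKO replicate 3 had 215 CPM. Collagen genes together took 1.78% of its counts against 1.42% to 1.48% in the other WT libraries. The ratio of Col18a1 to Col15a1 was 3.58 there, against 3.30 to 3.33 in the other WT libraries and 3.04 to 4.29 in cKO.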

How the results depend on the processing

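The count of collagen genes called was 0, and that of pathway genes 0, under each of 17 alternatives, of which 16 are distinct fits because the males are all libraries except WT replicate 2, and the collagen median log2 fold change ranged from −0.10 to 0.03. Over all features, the count called was 1 and became 0 with size factors from DESeq2, under plain library totals, with a 1 CPM filter, with estimation that is not robust and in male embryos only, 4 with no filter on low counts, and 13 with DESeq2's own test and 13 with the replicate block. Leaving out 1 library gave 0 to 3. The targeted gene passed the threshold with DESeq2 (−1.76, adjusted p = 1.25e-09), with no filter (−1.76, 0.0121) and with the replicate block (−1.77, 0.043). The main edgeR fit gave 0.0902, and the highest adjusted p over the 17 alternatives was 0.631. Its log2 fold change stayed between −2.02 and −1.61. The cause of these differences was not tested. The fibrillar share was 64.9% of the WT level per exon length and 69.5% with the longest transcript, and Col1a2 has 12426 annotated exon bases but a longest transcript of 5348.

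The labels state no pairing by replicate number, and the main fit used none. Correlations between libraries were taken on log2 CPM of the tested features after the mean of each group was subtracted from its libraries. They therefore compare deviations within groups, not whole expression profiles. On these deviations, same-numbered WT and cKO libraries had correlations of 0.284, 0.419 and 0.06. For replicates 1 and 2, the same-numbered pair had the highest correlation across groups for both of its libraries. For replicate 3 it did not: the WT library correlated best with cKO replicate 1 (0.142), and the cKO library with WT replicate 2 (0.296). Whether same-numbered libraries belong together was not tested. With the block, Col11a1 had a log2 fold change of 0.36 and an adjusted p of 0.974. Of the 30 collagen genes at 10 CPM or more, 8 kept the sign of their log2 fold change, rounded to 2 decimals, in all settings. For Col6a1 and Col15a1 the rounded value reached 0 but did not go above it. For 6 of the 30 genes the 95% interval reached past 1.5-fold, so a change of that size was not excluded there with 4 and 3 animals.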
